A study of Mus musculus with 12 samples.

Results

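The 37 genes of the mouse mitochondrial genome were followed in tibialis anterior (TA) muscle before and after birth. They were found by Ensembl gene identifier, carry symbols that begin with mt-, and were 37 of the 55450 genes in the count table. The TA muscles came from wild-type (WT) mice of the 129Pas background, with no transgene, treatment or mutation at any age. RNA was sequenced at E18.5, an embryonic stage shortly before birth, and at 2 and 7 weeks (wks) of age. Each age had 4 mice, 1 library each, for a total of 12.

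Mitochondria keep a small circular genome of their own. It encodes 13 proteins that sit in the inner membrane as core subunits of complexes I, III and IV of the respiratory chain and of the ATP synthase, together with the 2 rRNAs and 22 tRNAs needed to translate them. A single RNA polymerase copies each strand, called heavy and light, into a long precursor that is cut mostly at the tRNAs, and most of the released mRNAs then receive short poly(A) tails. Skeletal muscle is rich in mitochondria, and the remaining subunits of the same complexes are made from nuclear genes.

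The library kit selected RNA with poly(A), so the mRNAs could be measured while the tRNAs, which carry no such tail when mature, and the rRNAs, with very short tails, were largely left out. On the reference mitochondrial genome, 16299 bp long, the 13 mRNA genes span 204 to 1824 bp, the 2 rRNA genes 955 and 1582 bp, and the 22 tRNA genes 59 to 75 bp. Of these, 9 lie on the opposite strand of the map, namely *mt-Nd6* and 8 tRNA genes. Coordinates here are those of GRCm39 chromosome M and were the same for the 37 genes in the GRCm38 RefSeq table.

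Several of the mRNAs depend on the tail for their reading frame. The last 21 bases of 3 genes with an unfinished stop codon are shown with the 9 bases that follow, with the single base of the stop codon in capitals, because the tail itself completes the codon to UAA. They end at positions 9390, 11544 and 15288 of chromosome M.
mt-Co3: ccatttattgatgaggatctTactccctta
mt-Nd4: taattacaggcctgacaataTgtgaatata
mt-Cytb: aaatactaaaattatatccaTgtcttgata

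By contrast, *mt-Co1* (chrM:5328-6872), *mt-Nd5* (chrM:11742-13565) and the light-strand gene *mt-Nd6* (chrM:13552-14070, minus strand) end in a complete stop codon, in capitals. *mt-Nd5* and *mt-Nd6* overlap by 14 bp on opposite strands.
mt-Co1: acctatgtaaaagtaaaaTAAgaaaggaag
mt-Nd5: tactcaattaatctcgagTAAtctcgataa
mt-Nd6: atcgagattactcgagatTAAttgagtata

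The share of all counts that fell on the 37 genes was higher at each later age, with no overlap between ages. At E18.5 the 4 libraries had shares of 5.99%, 3.27%, 4.94% and 7.58%. At 2 wks they had 7.81%, 8.13%, 10.1% and 10.3%, and at 7 wks 15.6%, 15.8%, 12.9% and 16.02%. The medians of 5.46%, 9.11% and 15.7% put the share at 7 wks 2.87 times that at E18.5. With 63018968 to 123449246 counts per library, the 95% exact binomial (Clopper-Pearson) intervals of these shares were at most 0.00842 percentage points wide on either side. The spread between mice was thus far larger than the counting error. In bulk samples fewer cells of a type and less RNA per cell cannot be told apart, and this holds for every comparison of ages here.

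**Figure D1:**
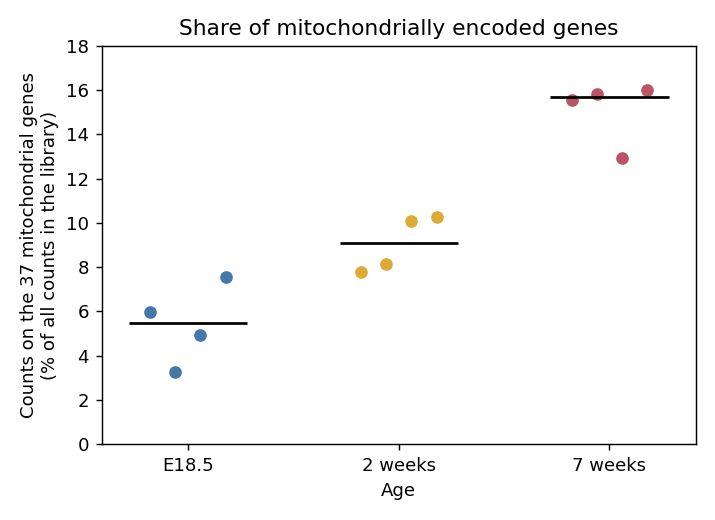
Share of all counts on the 37 mitochondrially encoded genes (vertical axis, % of the counts in a library) by age (horizontal axis). Each point is 1 of 4 libraries and each line the median of the age, from left to right 5.46%, 9.11% and 15.7%.

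Skeletal muscle markers were present at each age, and were far higher after birth. The 8 skeletal muscle genes were *Ckm*, *Acta1*, *Ttn*, *Des*, *Myh1*, *Myh2*, *Myh4* and *Ryr1*. Their summed level was 7001 to 13966 CPM in the embryonic libraries, against 115520 to 155002 and 143838 to 159413 CPM at the later ages. The list holds no embryonic or neonatal myosin gene, so the sum does not measure the amount of muscle in a sample. CPM stands for counts scaled to an equal library size, here with TMM, a factor per library that makes the typical nuclear gene equal between libraries. Markers of other cell types also moved with age. The 5 fibroblast markers summed to 4492 to 8666, 3199 to 4740 and 781 to 2789 CPM at the 3 ages in turn. The 4 macrophage markers summed to 72.1 to 95.4, 34.4 to 54.6 and 12.9 to 41.2 CPM. The 4 endothelial markers were highest at 2 wks, with 309 to 457, 688 to 839 and 409 to 703 CPM. The 5 nerve markers summed to 57.5 to 81.7, 82.4 to 439 and 58.8 to 99.7 CPM. The 6 adipocyte markers summed to 2131 and 3602 CPM in E18.5 libraries 3 and 4, against 176 to 484 in the other 10. Library 4 also had the highest mitochondrial share of its age, 7.58%, but library 3 at 4.94% was below library 1 at 5.99%. E18.5 library 2 had the lowest share, 3.27%. Among the E18.5 libraries it had the highest sums of epidermis (49.0 CPM) and of cartilage and bone markers (142 CPM). Its fibroblast (8666 CPM) and skeletal muscle sums (13966 CPM) were also the highest of that age. The part of these cell types in the shares was not tested. Without E18.5 libraries 3 and 4, *mt-Co3* lost its call from E18.5 to 2 wks (edgeR, adjusted p = 0.102) and *mt-Ts1*, a serine tRNA, gained one (adjusted p = 0.0211).

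Nearly all of the mitochondrial counts fell on 7 of the 37 genes, which held 99.6% to 99.9% of them in each library. These were *mt-Nd1*, *mt-Nd2*, *mt-Nd4*, *mt-Nd5* and *mt-Nd6* of complex I, *mt-Cytb*, the cytochrome b of complex III, and *mt-Co1*, the catalytic subunit of cytochrome c oxidase (complex IV). *mt-Co1*, *mt-Cytb* and *mt-Nd1* alone took 74.1% to 79.0%. The lowest count of any of the 7 genes was 1578, on *mt-Nd6* in an E18.5 library. The other 6 mRNA genes, *mt-Co2*, *mt-Atp8*, *mt-Atp6*, *mt-Co3*, *mt-Nd3* and *mt-Nd4l*, had at most 1342 counts in any library, with the exception of *mt-Co3* in 7 wks libraries 1 and 2.

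**Figure D2:**
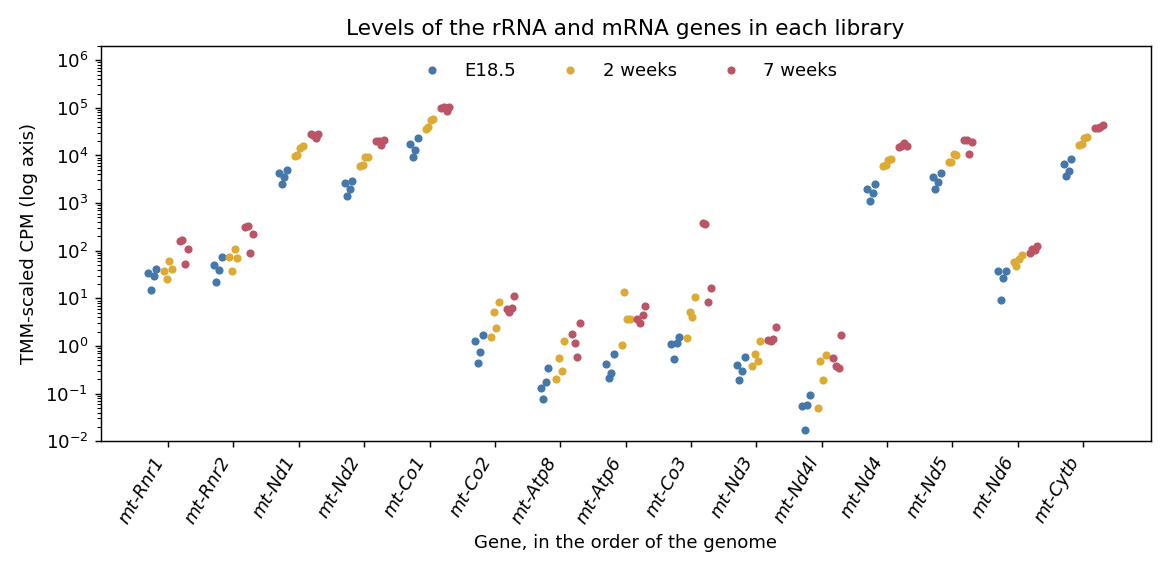
TMM-scaled CPM (vertical log axis) of the 2 rRNA and 13 mRNA genes in each of the 12 libraries (points, coloured by age), in the order of the genome. The 6 genes from mt-Co2 to mt-Nd4l sit far below their neighbours, and 7 wks libraries 1 and 2 stand apart on mt-Co3.

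Those 6 genes are the ones with an exact or nearly exact nuclear copy over their whole length. Mitochondrial DNA has been inserted into nuclear chromosomes many times, and reads that match both places equally well cannot be given to one of them. A stretch of chromosome 1 (chr1:24650616-24655269 of GRCm39, minus strand) aligned with 4653 bp of the mitochondrial genome (chrM:6390-11042) at 99.936% identity, with 3 differences. Every 100-base window, the length of a read, of *mt-Co2*, *mt-Atp8*, *mt-Atp6*, *mt-Co3* and *mt-Nd4l* had an exact match in the nuclear genome, and so did 98.8% of the windows of *mt-Nd3*. The share was 60.8% for *mt-Nd4*, 30.8% for *mt-Co1* and 3.20% for *mt-Nd2*, and 0 for *mt-Nd1*, *mt-Nd5*, *mt-Nd6* and *mt-Cytb*. Less similar copies cover more, such as *Gm13340* on chromosome 2, which spans the whole of *mt-Co1* at 97.4% identity, and 71.1% of the windows of *mt-Co1* had a nuclear match with at most 2 mismatches. The split of the mRNA genes into 7 and 6 was made with their counts known. The reference is the genome of C57BL/6J, and the chromosome 1 copy of the 129 background was not analysed here.

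The first 60 bases of *mt-Atp8*, a small subunit of the ATP synthase (chrM:7766-7825), are shown with the same stretch of the chromosome 1 copy (chr1:24653834-24653893, minus strand) as an example of a place where the 2 genomes read alike.
mt-Atp8: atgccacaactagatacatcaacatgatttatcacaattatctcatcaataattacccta
copy: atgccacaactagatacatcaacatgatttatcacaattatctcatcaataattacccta

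The 3 differences, in capitals, lie in *mt-Co1*, in *mt-Nd3* and in *mt-Tr*, the arginine tRNA. The substitutions were A6393T and T9461C, with the mitochondrial base first, its position on chromosome M, and then the base of the copy. The third was 1 extra base in a run of like bases, so its exact place is a matter of alignment.
mt-Co1: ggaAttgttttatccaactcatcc
copy: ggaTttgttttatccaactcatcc
mt-Nd3: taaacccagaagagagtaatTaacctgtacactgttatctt
copy: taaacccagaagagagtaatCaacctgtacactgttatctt
mt-Tr: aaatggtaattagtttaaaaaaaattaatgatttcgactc
copy: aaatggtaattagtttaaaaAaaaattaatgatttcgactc

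**Figure D3:**
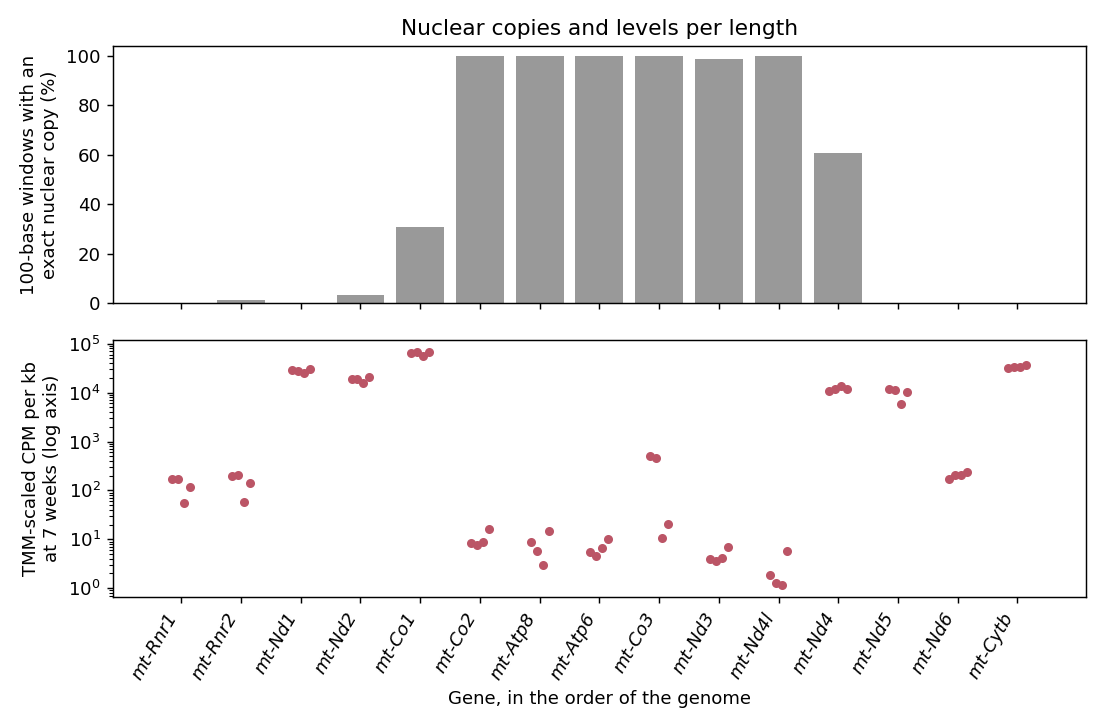
Top, percent of the 100-base windows of each gene with an exact copy in the nuclear genome (bars). Bottom, TMM-scaled CPM per kb of gene length at 7 wks (log axis, points are the 4 libraries), with the 6 genes at 98.8% to 100% lowest apart from mt-Co3 in libraries 1 and 2.

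Per length, the 7 genes without a full exact copy covered a wide range of levels, and the order was the same at each age apart from *mt-Nd4* and *mt-Nd5*. At 7 wks *mt-Co1* had a mean level of 63687 ± 5973 CPM per kb (SD, n = 4), *mt-Cytb* 34251 ± 2253 and *mt-Nd1* 28135 ± 2499. *mt-Nd2* followed at 18773 ± 1910, *mt-Nd4* at 11956 ± 1077 and *mt-Nd5* at 9953 ± 2691. The ranges of the last pair overlapped, at 11047 to 13517 against 5992 to 11719 CPM per kb. At E18.5 the order of that pair was the other way round, with 1313 ± 442 for *mt-Nd4* and 1720 ± 530 for *mt-Nd5*, again with overlapping ranges. With the length reduced to windows that have no exact nuclear copy, *mt-Nd4* reached 32818 CPM per kb at 7 wks. It then stood between *mt-Cytb* at 37496 and *mt-Nd1* at 31381, with *mt-Co1* at 98396. A gene has fewer windows than bases, so genes without any copied window, such as *mt-Cytb*, also moved up. The reads were paired, while the windows treat each read alone, so this correction may be too large for *mt-Nd4* and *mt-Co1*.

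*mt-Nd6*, the only mRNA gene of the light strand, was the lowest of the 7, with 205 ± 27.3 CPM per kb at 7 wks. Its mRNA is known to carry little or no poly(A), unlike those of the heavy strand. The mean level per kb of its neighbour *mt-Nd5* was 31.8, 39.2 and 48.7 times that of *mt-Nd6* at the 3 ages in turn.

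From E18.5 to 2 wks, each of the 7 genes rose. *mt-Co1* had 17554, 9075, 13251 and 23330 CPM at E18.5, 36866, 40582, 56995 and 58610 at 2 wks, and 99704, 106030, 85107 and 102743 at 7 wks. *mt-Nd4*, a proton-pumping subunit of complex I, had 2013, 1089, 1608 and 2524 CPM at E18.5, 5905, 6221, 8185 and 8246 at 2 wks, and 15223, 16008, 18627 and 16042 at 7 wks. On the TMM scale the lowest library of an age was above the highest of the age before for both genes. By total counts the E18.5 and 2 wks libraries overlapped for *mt-Co1*. By the quasi-likelihood test of edgeR, adjusted by Benjamini-Hochberg over all genes tested, *mt-Nd4* rose most among the 7, by a log2 fold change of 1.98 ± 0.26 (SE; adjusted p = 1.95e-05). *mt-Nd6* rose least, by 1.19 ± 0.34 (adjusted p = 0.00665), and *mt-Co1* rose by 1.61 ± 0.31 (adjusted p = 0.000424).

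Of the 37 genes, 24 had enough counts to be tested, namely the 13 mRNA genes, the 2 rRNA genes and 9 tRNA genes. From E18.5 to 2 wks 16 of the 24 were higher and 0 lower, where 65.7% of all genes tested differed and 31.5% were higher. The 16 were 12 of the 13 mRNA genes, 4 of the 9 tRNA genes and neither rRNA gene. The calls of *mt-Co3* (adjusted p = 0.048) and *mt-Atp8* (adjusted p = 0.0294) were lost in 7 and 4 of the 12 fits that left out 1 library and by total counts. *mt-Nd3*, another complex I subunit, was the mRNA gene that missed the threshold, at 0.94 ± 0.42 (adjusted p = 0.0618). For 8 of the 13 mRNA genes the libraries of the 2 ages did not overlap, all higher at 2 wks, against 28.9% of all genes tested. By total counts this held for 4 of the 13, a scale on which the share over all genes was not counted.

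The size of the rise depends on what it is set against. Relative to scaling by total counts, TMM scaling moved the median of all genes up by 0.93 on the log2 scale in this interval. Scaled by total counts, the log2 fold changes of the 7 genes were between 0.25 and 1.04 and 5 of them were higher, where 13.2% of all genes were. On that scale *mt-Tq* and *mt-Tp*, tRNA genes of the light strand, were lower (adjusted p = 0.0136 and 0.0191). *mt-Nd5* (0.55, adjusted p = 0.0728) and *mt-Nd6* (0.25, adjusted p = 0.485) then did not pass the edgeR test.

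From 2 to 7 wks, 6 of the 7 genes rose again. *mt-Nd2*, a complex I subunit, had 5950, 6199, 9183 and 9458 CPM at 2 wks and 19994, 20089, 16634 and 21228 at 7 wks, after 2675, 1378, 1982 and 2863 at E18.5. It rose most of the 7, by 1.34 ± 0.26 (edgeR, adjusted p = 0.00248). *mt-Nd1* rose by 1.10 ± 0.26 (adjusted p = 0.00673), *mt-Co1* by 1.03 ± 0.30 (adjusted p = 0.0226) and *mt-Cytb* by 0.95 ± 0.27 (adjusted p = 0.0191). On the TMM scale the libraries of the 2 ages did not overlap for any of the 7. Of all genes tested 17.3% were higher with no overlap. By total counts, with no share over all genes counted, 5 of the 7 did not overlap, while *mt-Nd5* and *mt-Nd6* did. On the TMM scale *mt-Nd6* had 59.1, 46.8, 67.3 and 82.8 CPM at 2 wks and 89.1, 106, 105 and 124 at 7 wks. Its difference of 0.73 ± 0.33 did not pass the edgeR test (adjusted p = 0.119).

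In the whole set 16 of 24 genes were higher at 7 than at 2 wks and 0 lower, where 27.5% of all genes tested differed and 13.5% were higher. They were 8 of the 13 mRNA genes, both rRNA genes and 6 of the 9 tRNA genes. The count fell to 7 without 2 wks library 2, to 8 without 2 wks library 1 and to 10 without 7 wks library 4. *mt-Co1*, *mt-Nd5* and *mt-Cytb* lost their calls when either of those 2 wks libraries was left out, with adjusted p of 0.0551 to 0.0754, while their fold changes stayed between 0.85 and 0.95. Scaled by total counts the median of all genes moved by 0.35, and 3 of the 7 genes were called, *mt-Nd1*, *mt-Nd2* and *mt-Nd4*, with 4.92% of all genes higher. With the trend over GC content removed from each library, 4 were called, those 3 and *mt-Nd5*.

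**Figure D4:**
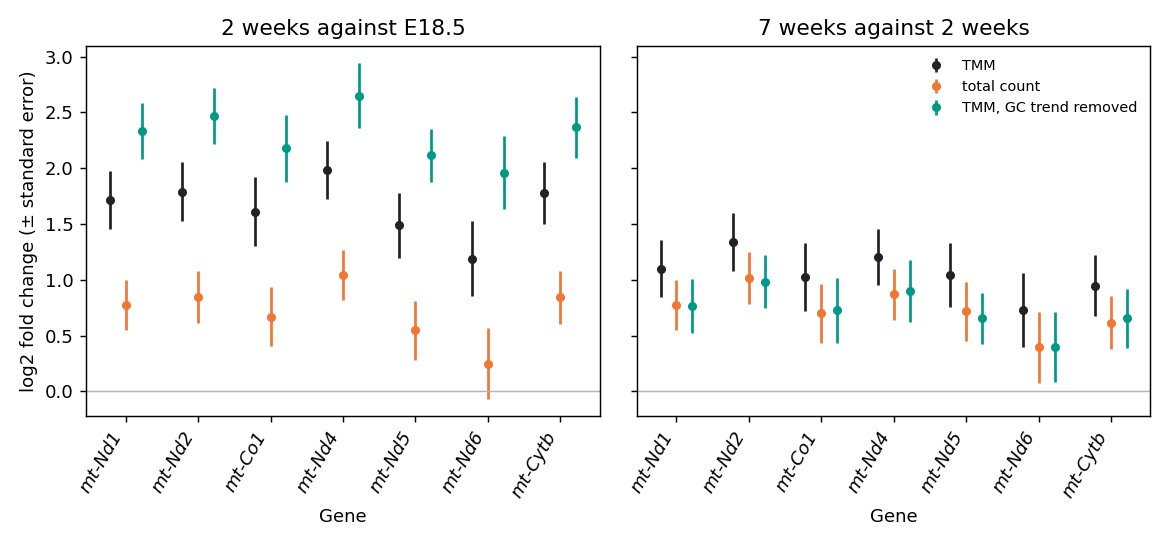
log2 fold changes (vertical axis, points with standard errors from edgeR) of the 7 mRNA genes without a full exact nuclear copy, from E18.5 to 2 wks (left) and from 2 to 7 wks (right), with TMM scaling, with total-count scaling, and with TMM and the GC trend removed. The values at 2 wks range from 0.25 for mt-Nd6 by total counts to 1.98 for mt-Nd4 with TMM, and higher with the GC trend removed.

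Over the whole span from E18.5 to 7 wks all 7 genes rose, by 1.92 ± 0.34 for *mt-Nd6* (edgeR, adjusted p = 0.000189) to 3.19 ± 0.27 for *mt-Nd4* (adjusted p = 2.39e-07). Of the 24 genes tested 21 were higher, where 71.4% of all genes differed and 34.3% were higher. On the TMM scale the libraries of the 2 ages did not overlap for all 13 mRNA genes. Of all genes 30.2% were higher and 33.3% lower with no overlap. By total counts 11 of the 13 mRNA genes did not overlap, again with no share over all genes counted on that scale. This comparison shares its libraries with the other comparisons.

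A separate contrast asked whether the change before 2 wks differed from that after. None of the 7 genes passed, with differences of 0.45 to 0.83 between the log2 fold changes of the intervals (edgeR, adjusted p of 0.165 to 0.546), where 38.4% of all genes did, 21.6% with a higher and 16.8% with a lower earlier change. Of all 24 genes 3 passed, *mt-Atp6*, *mt-Tm* and *mt-Tq*. That outcome rested on the scaling. By total counts the differences were between -0.17 and 0.23 and none passed, and with the GC trend removed they were 1.45 to 1.75 and all 7 passed.

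Within the 13 mRNAs, *mt-Nd4*, *mt-Nd5* and *mt-Nd2* had shares that did not overlap between some ages. Among the copied genes this also held for *mt-Co3*, between E18.5 and 7 wks. *mt-Co1* made up 47.8%, 45.9% and 44.9% of the 13-gene sum on average at the 3 ages in turn, and *mt-Nd1* 11.9%, 11.9% and 12.3%. *mt-Nd4* went from 5.46%, 5.51%, 5.78% and 5.42% at E18.5 to 7.17%, 7.06%, 6.70% and 6.51% at 2 wks, with no overlap. Any 4 against 4 without overlap gives a two-sided exact permutation p of 0.0286, the smallest that 70 regroupings allow. That p therefore adds nothing to the lack of overlap by which these genes were picked, and it was not adjusted for the number of genes. *mt-Nd5* went the other way, from 9.48%, 10.1%, 9.998% and 9.17% to 8.82%, 8.10%, 8.64% and 8.10%, again with no overlap. *mt-Nd2* had 7.23%, 7.04%, 7.51% and 7.46% at 2 wks and 9.002%, 8.79%, 8.58% and 9.18% at 7 wks, also with no overlap. None of these 3 shifts of *mt-Nd4*, *mt-Nd5* and *mt-Nd2* passed edgeR's test with the 13-gene sum as library size (adjusted p of 0.276, 0.482 and 0.310). That test shares its estimate of the spread with all other genes.

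The same edgeR test called the copied genes *mt-Atp6* and *mt-Co3*, and only *mt-Nd6* among the 7. *mt-Atp6* had 2.30 to 2 wks (adjusted p = 0.00109) and then -1.46 to 7 wks (adjusted p = 0.0278). The second call was lost without 2 wks library 2, 7 wks library 1 or 7 wks library 2. *mt-Co3* had 4.12 from 2 to 7 wks (adjusted p = 0.000579) and 4.71 from E18.5 to 7 wks (adjusted p = 2.07e-05). Of all genes 80.4% differed from that sum in the first interval and 66.6% in the second. *mt-Nd6* was lower against the 13-gene sum at 7 wks than at E18.5, by a log2 fold change of -0.76 ± 0.28 (adjusted p = 0.0158), where 91.7% of all genes differed from that sum. Its shares were 0.103%, 0.0463%, 0.0971% and 0.0817% at E18.5 and 0.0401%, 0.0466%, 0.0543% and 0.0535% at 7 wks. The groups overlapped through E18.5 library 2 (exact permutation p = 0.114), and the call was lost without E18.5 library 1, E18.5 library 3 or 7 wks library 1 (adjusted p of 0.0541 to 0.0550).

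One adult library had other proportions than the rest of its age. In 7 wks library 3, *mt-Nd4* made up 9.61% of the 13-gene sum against 6.85% to 7.00% in the other 3, and *mt-Nd5* 5.64% against 8.32% to 9.62%. The same library had the lowest mitochondrial share at 7 wks, 12.9%, and the lowest levels of both rRNAs.

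The 6 genes inside the nuclear copy gave few and uneven counts, so their fold changes describe the reads that were left after mapping and counting. *mt-Co2*, a copper-binding subunit of complex IV, had 75 to 341 counts at E18.5, then 90 to 643 (2 wks) and 292 to 687 (7 wks). *mt-Atp6*, the membrane subunit of the ATP synthase that forms its proton channel, had 36 to 139, 62 to 1342 and 184 to 416. Its highest value was 2 wks library 2, and the annotated copy of the gene, *Atp6-ps*, had 16695 counts in that library against 264 to 585 in the others of that age. For *mt-Atp6* the rise to 2 wks was 3.81 ± 0.66 (edgeR, adjusted p = 0.000198), and it was called in the contrast of the intervals (adjusted p = 0.00604) but no longer without that library (adjusted p = 0.0652).

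*mt-Co3*, the third core subunit of complex IV, had 90 to 304 counts at E18.5 and 89 to 833 at 2 wks. At 7 wks it had 19469, 22898, 541 and 997 counts, so that 2 libraries stood far above the other 2. The rise of 5.15 ± 1.08 from 2 to 7 wks (edgeR, adjusted p = 0.00377) rested on those 2 libraries, and without them it was 1.19 (adjusted p = 0.191). The matching copy on chromosome 1, *Gm28437*, had 24014 counts in 2 wks library 4 and 251 to 1400 in the other 11. High counts on *mt-Co3* and on its copy were therefore in different libraries.

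The remaining genes of the copied stretch were lower still. *mt-Nd3* had 23 to 150 counts over the 12 libraries, *mt-Atp8* 12 to 187 and *mt-Nd4l*, a small complex I subunit, 3 to 105. The other copies with 100 or more reads in some library were *Gm13340* and *Gm29216*, copies of *mt-Co1*, *Gm13341* and *Gm28661*, copies of *mt-Co2*, and *Gm28439*, a copy of part of *mt-Nd4*. All annotated copies together held 1943 to 29679 counts per library, and adding them to the mitochondrial genes moved the median shares to 5.47%, 9.12% and 15.7%.

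The rRNAs were present at a low level, as is usual after poly(A) selection. *mt-Rnr1*, the 12S rRNA, and *mt-Rnr2*, the 16S rRNA, together made up 0.00588% to 0.0341% of all counts. *mt-Rnr2* had 49.9, 21.9, 38.7 and 73.9 CPM at E18.5, 75.0, 37.7, 109 and 69.5 at 2 wks, and 309, 327, 90.3 and 219 at 7 wks. On the TMM scale the ages overlapped in each interval but not over the whole span. By total counts they overlapped over the whole span too. Neither rRNA passed from E18.5 to 2 wks, with 0.48 ± 0.37 for *mt-Rnr1* (edgeR, adjusted p = 0.267) and 0.66 ± 0.42 for *mt-Rnr2* (adjusted p = 0.179), although both did with the GC trend removed (adjusted p = 0.00295 and 0.00362). From 2 to 7 wks they rose by 1.55 ± 0.37 (edgeR, adjusted p = 0.00842) and 1.70 ± 0.43 (adjusted p = 0.0103). Without 7 wks libraries 1 and 2 the rises were 0.96 (adjusted p = 0.127) and 1.09 (adjusted p = 0.138), and both calls were lost. By total counts *mt-Rnr1* also lost its call from E18.5 to 7 wks (adjusted p = 0.0645).

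Of the 22 tRNA genes, 9 had 0 counts in all 12 libraries, where 3 counts, the limit that a count of 0 allows, would be 0.0243 to 0.0476 CPM without the TMM factor. These were the tRNAs of phenylalanine, valine, aspartate, lysine, glycine, arginine, histidine, serine (*mt-Ts2*) and leucine (*mt-Tl2*). A further 4 had at most 1 to 19 counts and were not tested. All tRNA genes are shorter than a read, so an untrimmed read assigned to one also covers its neighbours on the precursor. A gene could pass the filter on low counts through a single age, so counts over the 9 tested tRNA genes do not stand for all 22.

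The tRNA genes with the most reads were *mt-Tw*, the tryptophan tRNA (chrM:4950-5016), and *mt-Tt*, the threonine tRNA (chrM:15289-15355), with up to 1995 and 1733 counts. Both whole genes are shown with *mt-Tm*, the methionine tRNA (chrM:3845-3913), which differed between the intervals, and with *mt-Ts2* (chrM:11613-11671), the shortest, which had no read in any library.
mt-Tw: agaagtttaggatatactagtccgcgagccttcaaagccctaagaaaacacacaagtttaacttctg
mt-Tt: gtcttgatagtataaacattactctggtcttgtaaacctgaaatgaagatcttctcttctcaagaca
mt-Tm: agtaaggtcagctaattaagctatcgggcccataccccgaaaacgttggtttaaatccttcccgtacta
mt-Ts2: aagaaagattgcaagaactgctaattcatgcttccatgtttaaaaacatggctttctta

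*mt-Tw* had 183, 93, 164 and 348 counts at E18.5, 257, 350, 285 and 304 at 2 wks, and 798, 972, 550 and 1995 at 7 wks. On the TMM scale the ages did not overlap, and *mt-Tw* rose in both intervals, by 1.86 ± 0.39 (edgeR, adjusted p = 0.000942) and 2.20 ± 0.39 (adjusted p = 0.00145). *mt-Tt* lies directly behind *mt-Cytb*, with no base between them, and had 106, 58, 90 and 207 counts at E18.5, 928, 536, 110 and 173 at 2 wks, and 721, 1397, 1591 and 1733 at 7 wks. It rose to 2 wks by 3.28 ± 0.63 (adjusted p = 0.000429), although by total counts E18.5 and 2 wks overlapped. To 7 wks it rose again by 1.85 ± 0.58 (adjusted p = 0.0311). The last 2 ages overlapped, and the second call was lost in 6 of the 12 fits that left out 1 library. *mt-Ti*, the isoleucine tRNA, rose to 2 wks by 2.56 ± 0.79 (edgeR, adjusted p = 0.0116). That call was lost by total counts (adjusted p = 0.0689) and without 2 wks library 4 (adjusted p = 0.0959). *mt-Tm* lies directly before *mt-Nd2* and had 2 to 22 counts at E18.5, then 22 to 193 (2 wks) and 36 to 83 (7 wks). It rose to 2 wks by 4.51 ± 0.70 (adjusted p = 8.13e-05) and then differed by -0.04 ± 0.58 (adjusted p = 0.966). It passed the contrast of the intervals (adjusted p = 0.00397). Both calls rest on the few counts at E18.5, and *mt-Tm* is left out when at least 10 counts are asked for in every library.

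The light-strand tRNAs *mt-Tq*, *mt-Ty*, *mt-Te* and *mt-Tp*, for glutamine, tyrosine, glutamate and proline, passed from 2 to 7 wks with 1.72 to 2.29 and not from E18.5 to 2 wks. *mt-Ts1*, also of the light strand, passed in neither (1.33 from 2 to 7 wks, adjusted p = 0.252). Their counts were 2 to 263 per library, and each of the 4 calls was lost in at least 3 of the fits that left out 1 library. *mt-Tq* was the third gene called in the contrast of the intervals (edgeR, adjusted p = 0.0434), and it was lost in 10 of the 12 fits that left out 1 library. Strand bears on these genes, and the strand setting of the counting is not given in the sources used here.

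Genes that make and process mitochondrial RNA are all nuclear, and a list of 34 nuclear genes was followed beside their products. Besides genes that act on RNA, this list of processing genes held *Polg*, *Polg2*, *Twnk* and *Ssbp1*, which serve the copying of mitochondrial DNA. From E18.5 to 2 wks 13 were higher and 5 lower, where 31.5% of all genes were higher and 34.2% lower, with a median log2 fold change of 0.29 against -0.09 for all genes tested. *Polrmt*, the mitochondrial RNA polymerase, rose by 2.34 ± 0.36 (edgeR, adjusted p = 8.11e-05), *Fastk* by 2.71 ± 0.31 (adjusted p = 7.39e-06) and *Tbrg4* by 1.62 ± 0.20 (adjusted p = 1.22e-05). The last pair belong to a family of RNA-binding proteins of the mitochondrion. *Slirp* and *Lrpprc*, partners that stabilise mitochondrial mRNAs, rose by 0.87 ± 0.14 (adjusted p = 0.000115) and 0.65 ± 0.20 (adjusted p = 0.0092). *Mterf1b* and *Mterf1a*, which bind a termination site, fell by 0.94 and 0.93 on the log2 scale, and *Polg2*, the accessory subunit of the DNA polymerase, fell by 0.54. *Tfam*, which packs mitochondrial DNA and starts transcription, had 0.34 ± 0.15 (adjusted p = 0.0605), and *Mtpap*, the mitochondrial poly(A) polymerase, -0.06 ± 0.15 (adjusted p = 0.726).

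From 2 to 7 wks 8 of the 34 were higher and 0 lower, where 13.5% and 13.9% of all genes were, with a median of 0.25 against -0.03. *Tfb2m*, a transcription factor needed to open the promoter, rose by 0.77 ± 0.19 (edgeR, adjusted p = 0.00922), *Fastkd2* by 0.73 ± 0.18 (adjusted p = 0.00879) and *Prorp*, which cuts the precursor at the 5′ ends of tRNAs, by 0.73 ± 0.16 (adjusted p = 0.00464). *Tfam* rose by 0.47 ± 0.15 (adjusted p = 0.0335). *Lrpprc* had 0.55 (adjusted p = 0.0506), *Polrmt* -0.17 (adjusted p = 0.753), *Slirp* -0.01 (adjusted p = 0.957) and *Mtpap* 0.12 (adjusted p = 0.573). These calls rested on the scaling. By total counts 0 of the 34 passed in this interval, where 4.92% of all genes were higher. From E18.5 to 2 wks 3 were higher and 22 lower on that scale. There 13.2% of all genes were higher, and the median of all genes was -1.02. The share of all genes that were lower by total counts was not counted, so the 22 cannot be set against it.

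Nuclear genes of the respiratory chain and the ATP synthase had another course. Besides subunits of the same complexes, the list held *Sdha*, *Sdhb*, *Sdhc* and *Sdhd* of complex II, and *Cycs*, cytochrome c. All 32 that were followed rose from E18.5 to 2 wks, by 0.98 for *Uqcrc2*, a core protein of complex III, to 5.51 ± 0.56 for *Cox6a2*, the muscle form of a complex IV subunit (edgeR, adjusted p = 2.54e-06). Next came *Ndufs7* of complex I at 4.38 ± 0.50 and *Cox7a1*, also a muscle form, at 4.01 ± 0.51. Of all genes 31.5% rose in that interval. Their median was 2.08, and 28 of the 32 were higher by total counts, where 13.2% of all genes were. From 2 to 7 wks 0 of the 32 passed the edgeR test, with a median of 0.10 and a range of -0.62 to 0.63, while 3 had an unadjusted p under 0.05 and DESeq2 called 1. In the contrast of the intervals 28 of the 32 passed, all with the larger change before 2 wks, where 38.4% of all genes passed and 21.6% in that direction.

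Set directly against the 13 mitochondrial mRNAs, 28 of the 32 nuclear genes were lower at 7 than at 2 wks, with a median of -0.99. That was also the course of the average gene, since 66.6% of all genes tested differed and 65.9% were lower on this scale, with a median of -1.14. From E18.5 to 2 wks, on the same scale, 13 of the 32 were higher and 1 lower, with a median of 0.35 against -1.86 for all genes. In that comparison 80.4% of all genes differed.

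**Figure D5:**
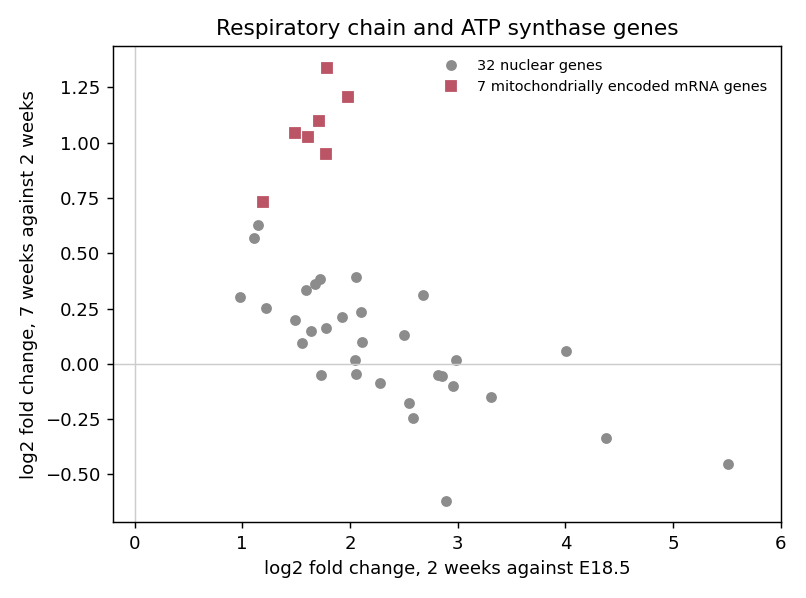
Change on the log2 scale before 2 wks (horizontal axis, against E18.5) and after 2 wks (vertical axis, 7 against 2 wks) of the 7 mitochondrially encoded mRNA genes (squares) and 32 nuclear genes of the respiratory chain and ATP synthase (circles). The 2 axes share the 2 wks libraries, so no slope should be read from them. The squares lie between 0.73 and 1.34 on the vertical axis and the circles between -0.62 and 0.63.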

How the data were processed

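TA muscle RNA from 4 mice at each of 3 ages was sequenced after poly(A) selection with a stranded kit. The authors deposited raw counts per Ensembl gene for each library. Per the labels, the submitters' processing notes name bcl2fastq 2.17.1.14, cutadapt 1.10, STAR 2.5.3a, HTSeq 0.6.1p1 and the build mm10, whereas the study's methods name GRCm39. The counting mode, the strand setting and the annotation release are not given in the sources used here.

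The study tested with Cuffdiff, which needs alignments. Here counts were tested with edgeR 4.0.16 in R 4.3.3, by quasi-likelihood tests on TMM-scaled counts of all 12 libraries, without covariates and with Benjamini-Hochberg adjustment at 0.05 over the 19276 genes that passed filterByExpr (36174 were removed). The contrast of the intervals compared the change before 2 wks with that after. The method was tested on simulated data. Shares within the 13 mRNAs were tested with exact permutation tests. Depth was 63018968 to 123449246 counts per library, and intervals and limits of 3 counts cover counting error only. Nuclear copies were found with blastn 2.17.0 and by exact matches of 100-base windows, and DNA sequences were read from the GRCm39 reference. Replicates differed by more than sampling noise in all 18 pairs.

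The members and the gene lists were chosen with earlier results of these data known. Any mitochondrial gene could be named, and in each list the 3 largest rises and falls that passed, *Tfam*, *Polrmt*, *Lrpprc*, *Slirp* and *Mtpap*, and nuclear copies with 100 or more reads in some library. Alternatives were scaling to total counts, upper-quartile scaling, TMM factors without the mitochondrial and the 20 most abundant genes, other filters on low counts, DESeq2 1.42.0, a replicate block, libraries of only the ages compared and leaving out each library. The GC trend, and leaving out pairs of libraries, were added after seeing the data.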

Additional observations from a re-analysis of the deposited data

Results flagged for a closer look

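Within each age, 120 sets of 4 libraries were searched for 1 library that stands far from the other 3, and 10 were found where chance gives about 6 (1 in 20). In 7 wks library 3, the share of counts on the 37 genes was 12.9% against 15.6% to 16.02% in the others, and *mt-Nd4* held 9.61% of the 13-mRNA counts against 6.85% to 7.00%. In 7 wks library 4, 3 genes of the copied stretch were high, with 11.3 CPM for *mt-Co2* against 5.22 to 6.14, 2.47 for *mt-Nd3* against 1.27 to 1.42, and 1.73 for *mt-Nd4l* against 0.337 to 0.562.

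The other 5 were nuclear copies. *Atp6-ps* had 172 CPM in 2 wks library 2 against 4.43 to 7.64, and 128 in 7 wks library 1 against 9.91 to 18.3. In 2 wks library 4, *Gm28437* had 313.6 CPM against 5.88 to 6.89, *Gm13340* 34.6 against 12.7 to 16.4, and *Gm13341* 8.18 against 1.76 to 2.79.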

How the results depend on the processing

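Over the alternatives, values of single mitochondrial genes lost a call 116 times, gained one 43 times, kept one 1225 times and stayed without one 1315 times. The sign changed 62 times, each time in a value that passed the test neither before nor after, among them values of the contrast of the intervals by total counts. Scaled to total counts, 9 mitochondrial genes differed from 2 to 7 wks, all higher, 2 were lower from E18.5 to 2 wks, 5 passed the contrast of the intervals, and of the nuclear lists 0 processing genes and 1 respiratory chain gene differed from 2 to 7 wks. With the GC trend removed these were 9 from 2 to 7 wks, 10 in the contrast and 1 respiratory chain gene. Without 7 wks libraries 1 and 2, 6 differed from 2 to 7 wks, and with at least 10 counts in every library 1 passed the contrast.

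Leaving out 1 library gave 0 to 1 mitochondrial genes lower from E18.5 to 2 wks, 7 to 17 that differed and were higher from 2 to 7 wks, and 1 to 4 in the contrast (1 without 2 wks library 2). It gave 4 to 12 processing genes and 0 to 2 respiratory chain genes from 2 to 7 wks, and 1 to 2 of the 13 mRNAs against their sum in each comparison. Without the 20 most abundant nuclear genes, the median mitochondrial share was 12.8% at 2 wks and 20.6% at 7 wks.

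Same-numbered libraries of different ages had correlations of -0.308 to 0.578 in their deviations, so the numbers did not pair them. With the number as a replicate block, 16 mitochondrial genes differed from E18.5 to 2 wks and 18 from 2 to 7 wks, 1 respiratory chain gene differed from 2 to 7 wks, and 1 of the 13 mRNAs did so against their sum. Low counts limit the precision of the tRNAs and of the copied mRNAs.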
